A study of Mus musculus with 5 samples.

Results

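The prion locus of the mouse holds 3 gene records whose transcription units overlap: Prnp, Prnd and Prn. They were picked out by symbol, 3 of 14161 gene records listed in any library, and a record missing from a library's table was taken as 0. Prnp and Prn were abundant enough for the fit across 3710 tested genes, and Prnd was not. RNA came from mesenchymal stem cells grown from femur marrow of C57BL/6 mice 6 to 8 weeks old and was sequenced at passages 1 to 3. The knockout group is 3 libraries of Bmal1-knockout cells, and the wild type group is 2 libraries of cells without the deletion. All cells were cultured in α-MEM with 12% FBS, and no treatment is given for either group. The labels do not say whether the libraries of a group came from separate animals, so that p-values measure only the spread between these libraries, which may be technical. The series asks which genes the circadian transcription factor BMAL1, partner of CLOCK, regulates in these cells.

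Prnp encodes the cellular prion protein, a glycoprotein held on the outer cell surface by a glycosylphosphatidylinositol (GPI) anchor. It binds copper, and its misfolded form is the agent of prion diseases. Stromal cells, blood stem cells and myeloid cells all make it, besides neurons. Prnd, downstream of Prnp on the same strand, encodes doppel, a GPI-anchored relative that in adult mice is made mainly in the testis. The record Prn stands for transcripts that start at the Prnp promoter, run past the end of Prnp and are spliced into the exons of Prnd, so that they encode doppel.

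The 3 records lie on the plus strand of chromosome 2 (GRCm38). Prnp (Entrez gene 19122) spans chr2:131909928-131938436, Prnd (26434) chr2:131950861-131956131 and Prn (111368) chr2:131909928-131956131. The annotated exons of Prn share 145 of their 3370 bases with exons of Prnp and 3122 with exons of Prnd. Exons of Prnp and Prnd share none. No annotated exon of the 3 genes lies opposite an exon of a gene on the other strand.

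**Figure D1:**
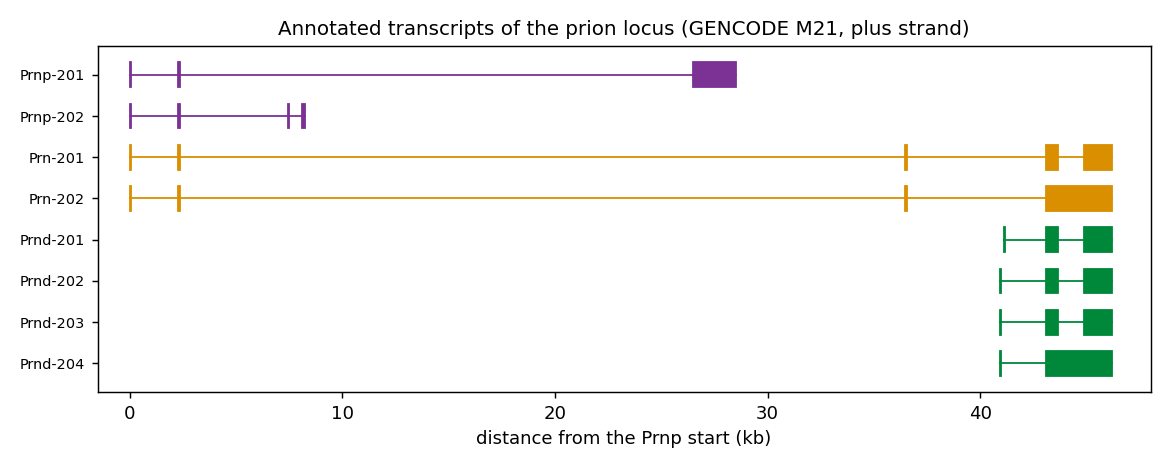
Annotated transcripts of the prion locus in GENCODE M21, drawn by distance from the Prnp start in kb, with exons as boxes and introns as lines. Prn starts with the first exons of Prnp and ends in the exons of Prnd.

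Prnp and Prn begin at the same base in RefSeq, so one upstream sequence serves both, and it is shown with that of Prnd because the records with a common start were both lower in the knockout. Capitals mark matches, on either strand, to CACGTG (the E-box bound by BMAL1 and CLOCK), TTATGNAA (the D-box bound by DBP and its relatives), GGGCGG (the GC box), CCAAT and TATAAA. The sequences are the 250 bases before the start, from RefSeq on GRCm38.p6, plus strand. No matches overlapped each other.
Prnp and Prn, chr2:131909678-131909927: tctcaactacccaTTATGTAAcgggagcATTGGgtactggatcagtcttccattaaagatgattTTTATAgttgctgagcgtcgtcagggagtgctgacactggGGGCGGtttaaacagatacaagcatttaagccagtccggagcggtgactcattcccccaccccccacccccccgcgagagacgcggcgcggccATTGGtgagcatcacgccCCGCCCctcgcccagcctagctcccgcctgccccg
Prnd, chr2:131950611-131950860: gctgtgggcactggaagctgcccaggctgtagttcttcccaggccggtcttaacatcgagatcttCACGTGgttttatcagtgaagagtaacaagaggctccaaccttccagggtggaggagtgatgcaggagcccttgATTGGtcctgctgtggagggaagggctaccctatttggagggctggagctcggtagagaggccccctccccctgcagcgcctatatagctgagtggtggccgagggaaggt

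The window before Prnp and Prn held no CACGTG. It held 1 D-box match, TTATGTAA, 237 to 230 bases before the start, a motif found in 3.07% of 32817 such promoter windows. It also held 2 GC box matches (the motif occurs in 32.7% of windows), 2 CCAAT matches (33.8%) and 1 reversed TATAAA match (12.4%). Its G and C content was 58.8%, against a median of 52.4% over all windows, and 31.1% of windows had as much or more. It held 17 CpG pairs, which were not counted over all windows. The window before the first start of Prnd held 1 CACGTG, 185 to 180 bases before the start, which 6.02% of all windows hold. A second Prnd start, whose window is not shown, had no match to any of the 5 motifs. A match is a run of letters and not a measured binding site.

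The libraries were shallow, with 226695, 237088 and 281990 expected counts in the knockout, against 243072 and 211623 expected counts in wild type libraries. Arntl, the gene symbol of Bmal1, had 4, 1 and 2 counts in the knockout, against 5 and 0 counts in the wild type libraries, so it does not check the genotype labels. Levels are given as CPM, the count scaled to a common total of tested genes, and the limit set by a count of 0 was 12.1 to 15.9 CPM. The 3 records were chosen on their expected counts and FPKM in this same contrast, so their values are a description and carry no test.

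Prnp had 980, 1055 and 1207 counts in the knockout, against 2080 and 1782 counts in the wild type libraries. Scaled for library size, that was 4708, 5015 and 4884 CPM in knockout cells and 9772 and 9471 CPM in wild type cells. The groups did not overlap, and the highest knockout library lay far under the lowest wild type library. Every knockout library lay under every wild type library in 21.6% of all tested genes. The mean was 4869 ± 154 CPM in the knockout (SD, n = 3) and 9622 ± 213 CPM in the wild type (n = 2), a ratio of 0.506 or a log2 ratio of -0.98. Over all pairs of a knockout with a wild type library, the ratio ran from 0.482 to 0.530.

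Prn had 580, 669 and 826 counts in the knockout, against 1954 and 1598 counts in the wild type libraries. Its levels were 2787, 3180 and 3342 CPM in knockout cells and 9180 and 8493 CPM in wild type cells. Again the groups did not overlap, and knockout 1 was the lowest library. The mean was 3103 ± 286 CPM in the knockout (SD, n = 3) and 8837 ± 486 CPM in the wild type (n = 2), a ratio of 0.351 or a log2 ratio of -1.51. In every pair of libraries the ratio of the Prn record was below that of Prnp. Its highest pair ratio was 0.394, and the lowest of Prnp was 0.482.

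Prnd, the doppel gene, had 7, 0 and 1 counts in the knockout, against 0 and 0 counts in the wild type libraries. Knockout 1 therefore held 33.6 CPM with an exact Poisson interval of 13.5 to 69.3 CPM (95%, counting error only), and knockout 3 held 4.05 CPM. At this depth Prnd was not detectable in wild type cells, and in the knockout it rested on 1 library. No fold is given.

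Since reads can be divided among the 3 records, the locus was also summed within each library. The sum was 1567, 1724 and 2034 counts in the knockout, against 4034 and 3380 counts in wild type cells, or 7528, 8195 and 8230 CPM against 18952 and 17964 CPM. The locus thus took 0.691% to 0.727% of all listed counts in knockout cells and 1.60% to 1.66% in wild type cells. The mean was 7985 ± 395 CPM in the knockout (SD, n = 3) and 18458 ± 698 CPM in the wild type (n = 2), a ratio of 0.433 or a log2 ratio of -1.21. The sum does not depend on how reads were divided within the locus, and it lay between the ratios of Prnp and Prn. Among all 3710 tested genes, 21.6% had every knockout library under every wild type library, 6.39% had a log2 fold change at or under -1, and the median log2 fold change was 0.0070.

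**Figure D2:**
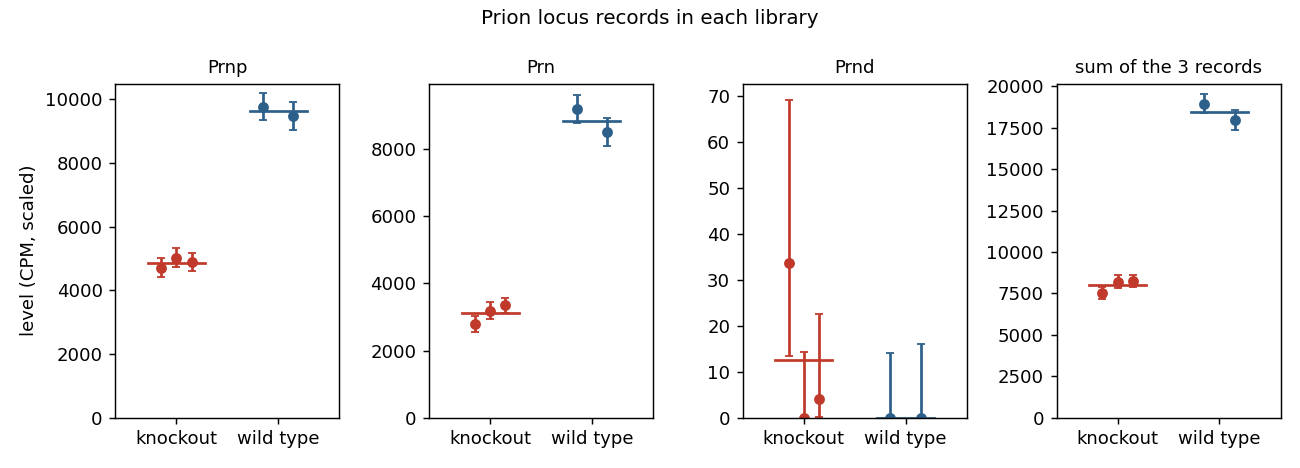
Level of each prion locus record and of their sum, in CPM, in the 3 knockout and the 2 wild type libraries, with exact Poisson intervals (95%; for a count of 0, up to the limit of 3 counts) as bars and group means as lines; each panel has its own scale from 0. Prnp, Prn and the sum were lower in every knockout library, and Prnd was near the limit of detection.

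Per length, Prnp was the more abundant of the 2 records in every library. In the authors' FPKM, which divide by gene length, Prnp had 938, 951 and 911 FPKM in the knockout, against 1900 and 1877 FPKM in the wild type libraries. Prn had 436, 472 and 488 FPKM in the knockout, against 1398 and 1317 FPKM in the wild type libraries. By FPKM, Prnp ranked between 24 and 27 among the listed genes in the knockout libraries and 13 in both wild type libraries, and Prn between 68 and 86 in the knockout and 21 in both wild type libraries. The ratio of Prn to Prnp in FPKM was 0.499 ± 0.036 in the knockout (SD, n = 3) and 0.719 ± 0.024 in the wild type (n = 2).

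The division of the locus counts differed between the genotypes as well. Prn held 37.0%, 38.8% and 40.6% of the locus counts in knockout cells, against 48.4% and 47.3% in wild type cells. The exact Clopper-Pearson intervals of the knockout libraries ended at 42.8% or lower, and those of the wild type libraries began at 45.6% or higher (95%, counting error only). The mean share was 38.8% ± 1.80 in the knockout and 47.9% ± 0.82 in the wild type, a difference of -9.06 percentage points, knockout minus wild type. These intervals take the estimated counts as if each read had been placed with certainty, which their decimals contradict. They also leave out the spread between libraries. The share comes from the counts on which the records were chosen, so it is a description and carries no test.

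**Figure D3:**
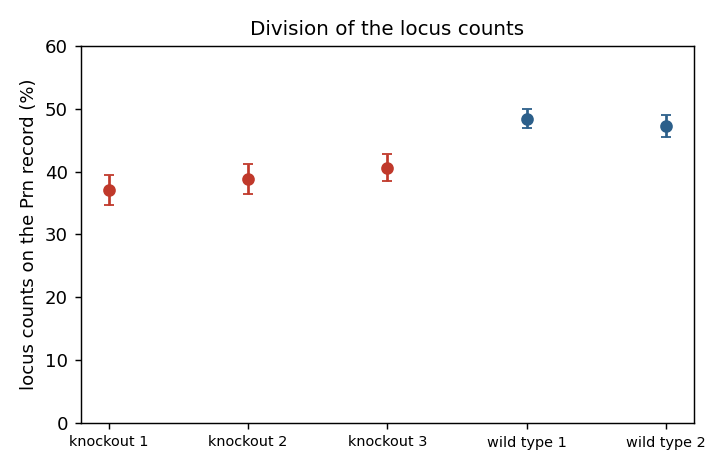
Share of the locus counts placed on the Prn record in each library, in percent, with exact Clopper-Pearson intervals (95%). The 3 knockout libraries lie between 37.0% and 40.6%, under both wild type libraries.

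The deposited estimates show that reads of the locus were ambiguous. Expected counts of Prnp and Prn carried decimals in all 5 libraries, as 980.43 and 579.75 in knockout 1 and 2079.93 and 1953.87 in wild type 1. Over all genes, between 93.8% and 94.2% of a library's values were whole within 0.005. No such share was taken for genes as abundant as Prnp and Prn, so how unusual their decimals are is not shown. The sum over the 3 records was not whole in any library either, being 1566.74 in knockout 1 and 4033.80 in wild type 1. Parts of some reads were thus placed outside these records. Where they were placed is not given by the deposited values.

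The lengths of the records bear on what was counted. The Prnp record had a length of 3732 bases in 4 libraries and 3727.44 in wild type 2, 1548 more than the 2184 exon bases of its longest annotated mRNA. The Prn record had 4728 bases in 4 libraries and 4710.56 in knockout 1, 1358 more than its longest annotated transcript, and it lists 2 assembled transcripts besides 2 from RefSeq. RSEM gives a gene's length as the mean over its transcripts weighted by abundance, so lengths this constant mean that nearly all counts lay on transcripts of these lengths. Among 8338 records that hold RefSeq transcripts only and could be matched, 186 (2.23%) were more than 1000 bases longer than annotated, and Prnp is one of them. Where along these longer transcripts the reads lay is not given by the deposited values. The annotated lengths are those of GENCODE transcripts matched by RefSeq name, and the lengths of the RefSeq mRNAs themselves were not read. The Prnp record lists 0 assembled transcripts, so the source of its extra length is not known. A level of the annotated Prnp mRNA, or of the annotated Prn transcripts, thus cannot be told apart from reads of the extra length. The Prn counts are therefore not a measured level of readthrough into Prnd. Prn shares most of its annotated exon bases with Prnd, yet Prnd was given at most 6.56 counts in any library.

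The genes beside the locus had few counts or none. Of the 5 annotated genes nearest on each side, 2 were listed in any library, both downstream. Rassf2, a Ras association domain protein 36719 bases past the locus, had 8, 13 and 8 counts in the knockout, against 17 and 11 counts in the wild type libraries (log2 fold change -0.67, adjusted p = 0.320, edgeR). Slc23a2, a vitamin C transporter, had 9, 15 and 13 counts in the knockout, against 12 and 9 counts in the wild type libraries (0.09, adjusted p = 0.921). Neither passed. Upstream, none of the 5 nearest genes was listed in any library.

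The 5 genes with the profile most like the locus sum were Dtx4, Paf1, Zmynd15, Gm15441 and Kcnk13, of 3134 tested genes with at least 50 counts. Likeness was the root mean square difference between log2(CPM + 1) profiles over the 5 libraries, each centred on its own mean, so it mostly reflects the difference between the genotypes. It was 0.036 for Dtx4, an E3 ubiquitin ligase of the deltex family, which had 283, 299 and 316 CPM in the knockout and 695 and 702 CPM in the wild type. Paf1, a subunit of the complex that travels with RNA polymerase II, stood at 0.047. It had 3565, 4055 and 4034 CPM in the knockout and 9208 and 9397 CPM in the wild type. Zmynd15, a zinc finger protein of spermatids (552 exon bases opposite Cxcl16), stood at 0.055, and Gm15441, a noncoding RNA with 606 exon bases opposite Txnip, at 0.056. Kcnk13, a potassium channel, stood at 0.067. The records of Paf1, Zmynd15 and Kcnk13 list assembled transcripts besides those from RefSeq, as do 47.0% of tested genes. Their levels are thus those of the whole records. For comparison, Prnp itself differed from the sum by 0.114 and Prn by 0.155, as their ratios lie on either side of it.

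**Figure D4:**
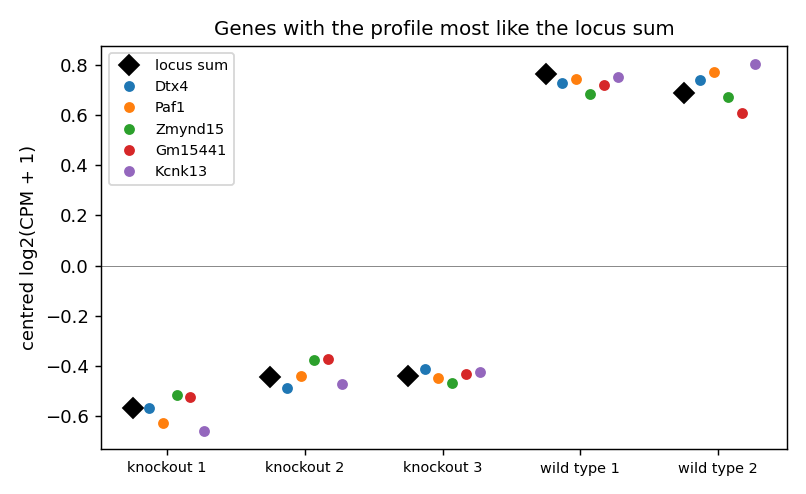
Centred log2(CPM + 1) of the locus sum (black diamonds) and of the 5 genes nearest to it (coloured points) in each of the 5 libraries. All 6 profiles lie under 0 in the knockout libraries and over 0 in the wild type libraries. The 5 genes were picked for their closeness to the sum, so this separation follows from the choice.

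Genes that work with the prion protein were read from the same edgeR fit. In it, 304 genes (8.19%) were higher and 302 (8.14%) lower in the knockout at an adjusted p under 0.05. Over the 7 role lists, 9 of 60 tested genes were called, 6 higher and 3 lower. That is near the 16.3% called among all 3710 tested genes, so the lists did not stand out by their share of calls. Of 25 partners reported to bind the prion protein, 11 were tested, of which 1 rose, 0 fell and 10 did not pass (median log2 fold change 0.23). The one that rose was Lamb1, a laminin chain, with 24, 26 and 23 counts in the knockout, against 7 and 10 counts in the wild type libraries (log2 fold change 1.36, SE 0.41, adjusted p = 0.00901). It lost the call without wild type 1 (1.02, adjusted p = 0.255). Rpsa, the laminin receptor that also binds the prion protein, had 425 ± 25.5 CPM in the knockout (SD, n = 3) and 327 ± 3.29 CPM in the wild type (n = 2) and did not pass (adjusted p = 0.150). The gene of the related protein Shadoo, Sprn, was not listed in any library.

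Of 8 proteases linked to the prion protein, 6 were tested, of which 2 fell, 0 rose and 4 did not pass (median -0.37). Adam8, a membrane protease reported to cut the prion protein in muscle, fell by 0.85 on the log2 scale (SE 0.20, adjusted p = 0.000328), with 64, 45 and 48 counts in the knockout, against 83 and 88 counts in the wild type libraries. Its call was lost without wild type 2 (-0.72, adjusted p = 0.0773). Bace1, the β-secretase that the prion protein is reported to inhibit, fell by 0.30 (SE 0.093, adjusted p = 0.0119), and leaving out knockout 2 (-0.31), wild type 1 (-0.33) or wild type 2 (-0.29) ended that call. It was placed at 44053 CPM in the knockout and 54158 CPM in the wild type, and 2061 of its exon bases lie opposite other genes. Adam10, which releases the prion protein from the cell surface, had 94.7 CPM in the knockout and 130 CPM in the wild type and did not pass (-0.45, adjusted p = 0.371).

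The machinery that builds the GPI anchor showed no called gene. Of 33 such genes 32 were listed and 8 tested, with 0 passing in either direction in edgeR and a median log2 fold change of 0.06. Of the 8, 0 had an unadjusted p under 0.05, and DESeq2 and voom also called 0.. The summed level of all 32 listed genes was 1583 ± 97.2 CPM in the knockout (SD, n = 3) and 1566 ± 122 CPM in the wild type (n = 2). Pigf, which adds ethanolamine phosphate to the anchor, had 302 CPM in the knockout and 336 CPM in the wild type, and Tmed2, a cargo receptor of early secretory vesicles, 203 and 176 CPM.

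Other proteins with the same kind of anchor had calls in both directions. Of 57 listed by role, 12 were tested, 1 rose, 1 fell and 10 did not pass (median -0.16). Cd14, the coreceptor for lipopolysaccharide and a macrophage marker, fell by 1.18 on the log2 scale (SE 0.28, adjusted p = 0.000449), with 33, 16 and 17 counts in the knockout, against 37 and 53 counts in the wild type libraries. Without wild type 2 its call was lost (-0.81, adjusted p = 0.210). Alpl, the alkaline phosphatase of bone-forming cells, rose, with 18, 15 and 19 counts in the knockout, against 3 and 0 counts in the wild type libraries, a ratio of 10.4 with an exact interval of 3.38 to 52.3 (95%, counting error only). It passed in edgeR without each library in turn, but its size rested on the wild type libraries. The log2 fold change was 3.29 with all libraries and 2.42 without wild type 2. Without wild type 1 the remaining wild type library had 0 counts, and the level was at least 4.91-fold higher in the knockout, taking 3 counts in that library as the limit. DESeq2 gave Alpl no adjusted p. Thy1, a stromal surface protein with this anchor, had 2, 0 and 0 counts in the knockout, against 3 and 0 counts in the wild type libraries.

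Copper genes were read because the prion protein binds copper. Of 24 copper and metallothionein genes 9 were tested, of which 2 rose, 0 fell and 7 did not pass (median 0.24). Lox, the copper-dependent enzyme that cross-links collagen, rose by 1.47 on the log2 scale (SE 0.14), with 1462 ± 57.8 CPM in the knockout (SD, n = 3) and 526 CPM in both wild type libraries. Mtf1, the metal-responsive transcription factor of the metallothionein genes, rose by 0.80 (SE 0.27, adjusted p = 0.0254), and 721 of its exon bases lie opposite 1110065P20Rik. Leaving out any of 4 libraries ended that call, namely knockout 2 (0.78), knockout 3 (0.69), wild type 1 (0.58) and wild type 2 (1.00). The metallothionein Mt1 itself had 8, 7 and 11 counts in the knockout, against 9 and 12 counts in the wild type libraries and was too low to test. Slc31a1, the copper importer, did not pass (0.21, adjusted p = 0.762).

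The prion protein folds in the endoplasmic reticulum. Of 20 genes of protein quality control there, 16 were tested, of which 2 rose, 0 fell and 14 did not pass (median 0.30). Pdia3, a disulphide isomerase of glycoproteins, had 568 ± 39.8 CPM in the knockout (SD, n = 3) and 406 ± 10.5 CPM in the wild type (n = 2) (log2 fold change 0.48, SE 0.17, adjusted p = 0.0263). Calr, the lectin chaperone calreticulin, had 934 ± 63.7 CPM in the knockout and 717 ± 36.3 CPM in the wild type (0.38, SE 0.14, adjusted p = 0.0399). Both calls were lost without knockout 3 (0.44 and 0.35) or either wild type library (0.49 and 0.42 without wild type 1, 0.45 and 0.33 without wild type 2).

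**Figure D5:**
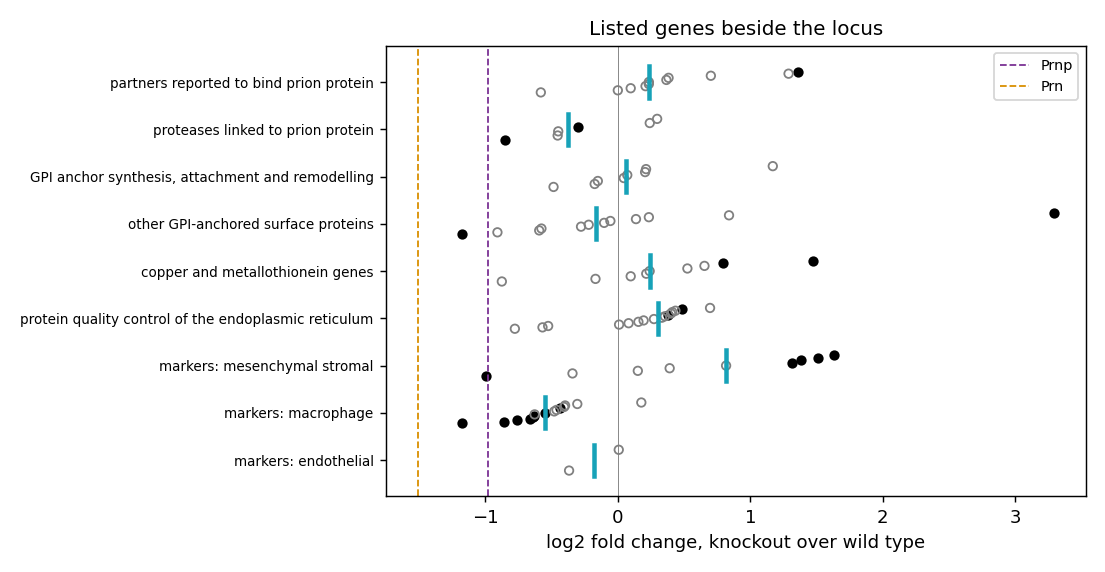
Log2 fold change, knockout over wild type, of each tested gene in the role and marker lists, with genes past an adjusted p of 0.05 filled, others open, and list medians as short bars; dashed lines mark Prnp and Prn. Every tested gene of the anchor synthesis, partner, protease, copper, quality control and endothelial lists lies right of both dashed lines. Over all tested genes, 6.39% had a log2 fold change at or under -1. The macrophage markers lie mostly left of 0.

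Macrophage markers and some markers of mesenchymal stroma differed between the genotypes. In such bulk samples, fewer cells of a type cannot be told apart from less RNA per cell. For comparison with the marker counts, 8.14% of all 3710 tested genes were called lower in the knockout and 8.19% higher. Of 15 macrophage markers tested, 8 fell and 0 rose, while 5 fell without knockout 2 or wild type 1 and 3 without wild type 2. The 4 with the smallest adjusted p were Lyz2, a lysozyme (log2 fold change -0.67), Ctss, a lysosomal protease (-0.86), Cd14 (-1.18) and Csf1r, the receptor for a macrophage growth factor (-0.76). The summed level of all 15 was 10159 to 11338 CPM in the knockout and 16402 to 16641 CPM in the wild type libraries, a ratio of 0.646, with none of the 15 at 0 in any library. The listed 12 markers of mesenchymal stroma, the labelled cell type, summed to 10606 to 11242 CPM in the knockout and 4285 to 4433 CPM in the wild type libraries, a ratio of 2.49. That ratio was carried by the collagen genes Col1a1, Col1a2 and Col3a1 and the chemokine gene Cxcl12. The other 8 markers summed to 547 ± 45.1 CPM in the knockout (SD, n = 3) and 605 ± 74.2 CPM in the wild type (n = 2), a ratio of 0.904 at which the libraries of the groups overlapped. Leaving out Lyz2, the macrophage sum had a ratio of 0.674. Of the 9 stromal markers tested, 4 rose (Col1a1, Col1a2, Col3a1 and Cxcl12) and 1 fell (Cd44, a call lost without wild type 2). Thy1 was at 0 in 3 of the 5 libraries and Lepr in 1. Beside these stands the locus sum with its ratio of 0.433, and the part of either cell type in it was not tested. Of 9 markers of neurons and glia, which make much prion protein, 5 were listed and 0 tested. None of these had over 7 counts in a library. They summed to 42.8 to 68.8 CPM in the knockout and 31.9 to 32.9 CPM in the wild type libraries, too few counts to read as a difference. Of 8 markers of male germ and Sertoli cells, 1 was listed, Sycp3, with 1 to 3 counts in each library. Of 7 endothelial markers 6 were listed and 2 tested, Pecam1 (-0.37) and Emcn (0.0066), and neither passed.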

How the data were processed

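Libraries were made from total RNA with Illumina protocols, per the labels' protocols. Each of the 5 deposited tables lists the authors' expected counts, FPKM and length in bases by gene, per the file headers. The submitters' processing notes name mm10, HISAT2, StringTie, Bowtie2 and RSEM, with no version or role. Whether counting used strand is not stated there.

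Expected counts were rounded to whole numbers and compared with edgeR 4.0.16 in R 4.3.3. Genes were kept by filterByExpr (at least 10 counts, 15 in total), scaled by TMM and tested by a robust quasi-likelihood model of genotype, with p-values adjusted by Benjamini-Hochberg over all genes tested and called at 0.05. The script was tested on simulated data. CPM are counts over the scaled total of tested genes, and the limit for 0 is 3 counts. Intervals cover counting error only. DESeq2 1.42.0, limma 3.58.1 (voom), other scalings, no filter, a replicate block, and each library left out were alternatives; marker sums without their most abundant genes were added after seeing the data.

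The members and the lists were chosen with earlier results of these data known, so members carry no test and lists are described by counts and medians. Named are the members, the 5 most alike profiles, the 5 nearest genes on each side, and of each role list those past the test, at most 4 per direction, or the 2 highest where none passed. Rpsa, Adam10, Thy1, Mt1, Slc31a1, Sycp3 and the cell type markers were added outside this rule after their values were seen. Exon lengths and overlaps come from GENCODE M21, positions and promoter sequences from RefSeq; all 3 members matched.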

Additional observations from a re-analysis of the deposited data

How the results depend on the processing

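The locus log2 ratio stayed between -1.25 and -1.17 with each library left out, and the share of Prn between -9.96 and -8.15 percentage points, knockout minus wild type. FPKM and pooled counts moved neither these nor the ratios of Prnp and Prn by more than the spread between replicates, nor did other scalings and unrounded counts move the ratios. Of the macrophage markers, 8 were called, against 4 with DESeq2 and 5 without the filter. Leaving out the 3 collagen genes, chosen after seeing the data, moved the log2 ratio of the stromal sum to 0.50, against 1.31 with all markers, and leaving out Cxcl12 as well turned it to -0.15. Prnd gave no ratio under any setting. Genes called numbered 606, against 280 with DESeq2, and 298 to 610 with a library left out (298 without wild type 1, 299 without wild type 2). Genes called in the 7 role lists numbered 9 of 60 tested, beside 16.3% over all tested genes, against 4 with DESeq2. With a knockout library left out they numbered 6 to 12. With a wild type library left out, 1 wild type library remained and fewer were called.

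Replicate numbers are shared by the genotypes, but nothing says that they pair the libraries, and deviations of same-numbered libraries correlated at 0.010 over genes. With the replicate number as a block, 441 genes and 5 of the list genes were called, and the locus log2 ratio within numbers 1 and 2 was -1.23. Bace1, Mtf1, Pdia3 and Calr lost their calls with the block; Lamb1, Mtf1, Pdia3 and Calr lost them with DESeq2, which gave Alpl no adjusted p, and Bace1, Mtf1, Pdia3 and Calr without the filter. Calr also lost it with RLE scaling (adjusted p = 0.0519) and voom (0.0535). Depth limits Prnd most, since the limit set by 3 counts is up to 15.9 CPM.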
